A study of Mus musculus with 9 samples.

Results

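The hippocampal transcriptome of 9-month-old control (CRL) mice was described from 3 arrays, 1 male C57BL/6J mouse per array, out of 9 arrays in the series. The CRL arrays were taken by their label. The other 6 arrays came from 3 IF1-KO and 3 IF1-TG males of the same strain, age and regular chow diet. IF1, encoded by Atp5if1 and listed on the array under its older symbol Atpif1, is the inhibitor protein of the mitochondrial ATP synthase. IF1-KO mice lost exon 3 of the gene through a Camk2a-driven Cre, so hippocampal cells in which that driver is silent, such as glia, keep it. IF1-TG mice carried human IF1 under a tetracycline element together with the Camk2a-driven transactivator tTA. The study gives CRL as wild type at the gene for forebrain extracts, and its control cultures as wild type with Cre in the knockout cross and as wild type or tTA carriers in the transgenic cross. Whether the CRL mice of the arrays carried Cre or tTA is not given in the sources used here. The floxed line was first made in C57BL/6N cells and kept on C57BL/6J.

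The hippocampus holds glutamatergic pyramidal cells of fields CA1, CA2 and CA3, granule cells of the dentate gyrus, GABAergic interneurons, astrocytes, oligodendrocytes and their precursors, microglia and vessel cells. Fast excitation runs through AMPA, NMDA and kainate receptors for glutamate, and fast inhibition through GABA-A receptors, which are chloride channels built from several subunits. The ATP that drives the sodium and calcium pumps of neurons comes from glycolysis and from oxidative phosphorylation, in which complexes I to IV build a proton gradient and the ATP synthase spends it. The choroid plexus, a secretory epithelium that makes cerebrospinal fluid, lies beside the hippocampus in the ventricle.

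A signal here is the log2 of the array's processed green intensity minus the 75th percentile of that array, so 0 marks the 75th percentile of all probes and each unit is a doubling. Each gene name was represented by its brightest probe. A percentile gives the place of that probe among all 31093 gene names, 0 being the dimmest and 100 the brightest. Brightness depends on how well a probe binds as well as on transcript number, so the ranks describe probes, and the order of 2 genes in them is not an order of transcript abundance. A gene is called detected on an array where at least 1 of its probes was marked well above background by the scanning software, and undetected where none was on any of the 3 CRL arrays.

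On all 3 CRL arrays 21541 of 31093 gene names (69.3%) were detected and on none 6842 (22.0%). A further 1180 were detected on 2 arrays and 1530 on 1. Of the 22583 names matched to a RefSeq gene, 74.7% were detected on all 3. No spot was saturated. The 3 arrays correlated with each other at Pearson's r = 0.985 to 0.988 across probes, which are not independent replicates. CRL replicates 1 and 2 lay on slide 2 and CRL replicate 3 on slide 3, so slide and mouse cannot be told apart for replicate 3. Probes printed several times spread by a median SD of 0.26 and 0.23 within CRL arrays 1 and 2 and of 0.045 within array 3. With 3 arrays, all values below are of limited precision. Atpif1 itself read 6.40, 6.42 and 6.26 on the CRL arrays, 6.52, 5.28 and 5.60 on the IF1-KO arrays and 6.49, 6.47 and 6.58 on the IF1-TG arrays. The array labelled IF1-KO replicate 1 was therefore at the CRL level, and any direction below that rests on the IF1-KO arrays includes it as labelled.

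Several of the brightest probes carried sequence that recurs across RefSeq promoters, the only sequence searched. A probe was called repeat-like when at least 10 of 32544 RefSeq promoters held any of its 18-base stretches. That held for 458 of 39429 probes (1.16%), and for the brightest probe of 406 gene names (1.31%). Among the RefSeq-matched and unmatched names together it held for 5 of the 10 brightest, 7 of the 20 brightest and 18 of the 100 brightest. The windows of these 7 probes are shown because their gene names would otherwise head a list of the most abundant hippocampal transcripts. Capitals mark the 18-base stretch found in most promoters, and the mm9 position given is that of the whole probe.
Exosc2 (chr2:31536706-31536765): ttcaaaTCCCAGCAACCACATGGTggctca
Glrx2 (chr12:44858646-44858705): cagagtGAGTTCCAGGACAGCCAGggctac
Slc10a1 (chr12:100686870-100686929): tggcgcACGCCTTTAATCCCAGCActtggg
Elk1 (chr12:100686807-100686866): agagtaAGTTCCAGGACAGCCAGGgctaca
Ttc38 (chr9:6882777-6882836): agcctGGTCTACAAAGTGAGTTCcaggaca
Kctd14 (chr7:104606896-104606955): aggttgAGGCCAGCCTGGTCTACAaagtga
2610028H24Rik (chr10:75923721-75923780): cgcagtGGCTCACAACCATCTGTAatgaga
The capitals of the Exosc2 probe, the brightest of all at a mean of 7.96, were present in 62 promoters. Glrx2 and Elk1 share most of their marked stretch, which was present in 28 promoters for each. For Slc10a1 the capitals were present in only 3 promoters, and 14 held any stretch of the probe, so it lay near the limit. The probes for Slc10a1, a bile acid transporter of the liver, and Elk1, a transcription factor, lie next to each other on chromosome 12. Which repeat these stretches belong to was not tested. Probe placement was a separate matter: of 21456 genes with both positions, the brightest probe of 1213 (5.65%) lay on another chromosome than the RefSeq gene, and among the 100 brightest of these genes 22 did, 16 of them not repeat-like. Gapdh, Ppia and Tuba1b were among them, each a gene with processed copies elsewhere in the genome. The choice of probe also matters within a gene. For 5997 detected genes with at least 2 probes the brightest exceeded the next by a median of 2.35 on the log2 scale, and for 1603 of them (26.7%) by 4 or more.

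With the repeat-like probes set aside, the brightest named genes belonged to energy supply, astrocytes, the cytoskeleton, calcium binding and the ribosome. Aldoa, a glycolytic aldolase, read 7.92, 7.94 and 7.81 on CRL replicates 1, 2 and 3. Cox6a1, a subunit of complex IV, read 7.75, 7.66 and 7.51. Gapdh, the glycolytic dehydrogenase, read 7.63, 7.73 and 7.15. These 3 differed between mice by 0.58 or less, against a median range of 0.38 over all genes. Clu, the lipid-binding chaperone clusterin, averaged 7.42 ± 0.31 (SD, n = 3). Sparcl1, a matrix protein of astrocytes, averaged 7.42 ± 0.46 and Apoe, the lipid carrier of astrocytes, 7.17 ± 0.11. Fth1 (ferritin heavy chain), Ubb (ubiquitin), Calm2 (calmodulin), Actb and Tuba1b (cytoskeleton), Kif5a (a neuronal kinesin), Rps14 and Rpl41 (ribosome), Cox8a (complex IV), Ppia (cyclophilin A) and the small RNA Rn4.5s were also among the first 20 RefSeq-matched names, at means of 7.12 to 7.59. The predicted genes Gm5523 (mean 7.72) and Gm8709 (7.11) were among them too.

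Lists of markers for cell types, receptors and metabolic pathways were placed on this scale. The median percentile of a list was above 75 for 27 of 68 lists and below 50 for 14. The plot of cell type, receptor and metabolic lists shows energy metabolism and general neuronal markers at the top, and glycine and nicotinic receptors and markers of testis, pituitary and liver near the bottom.

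**Figure D1:**
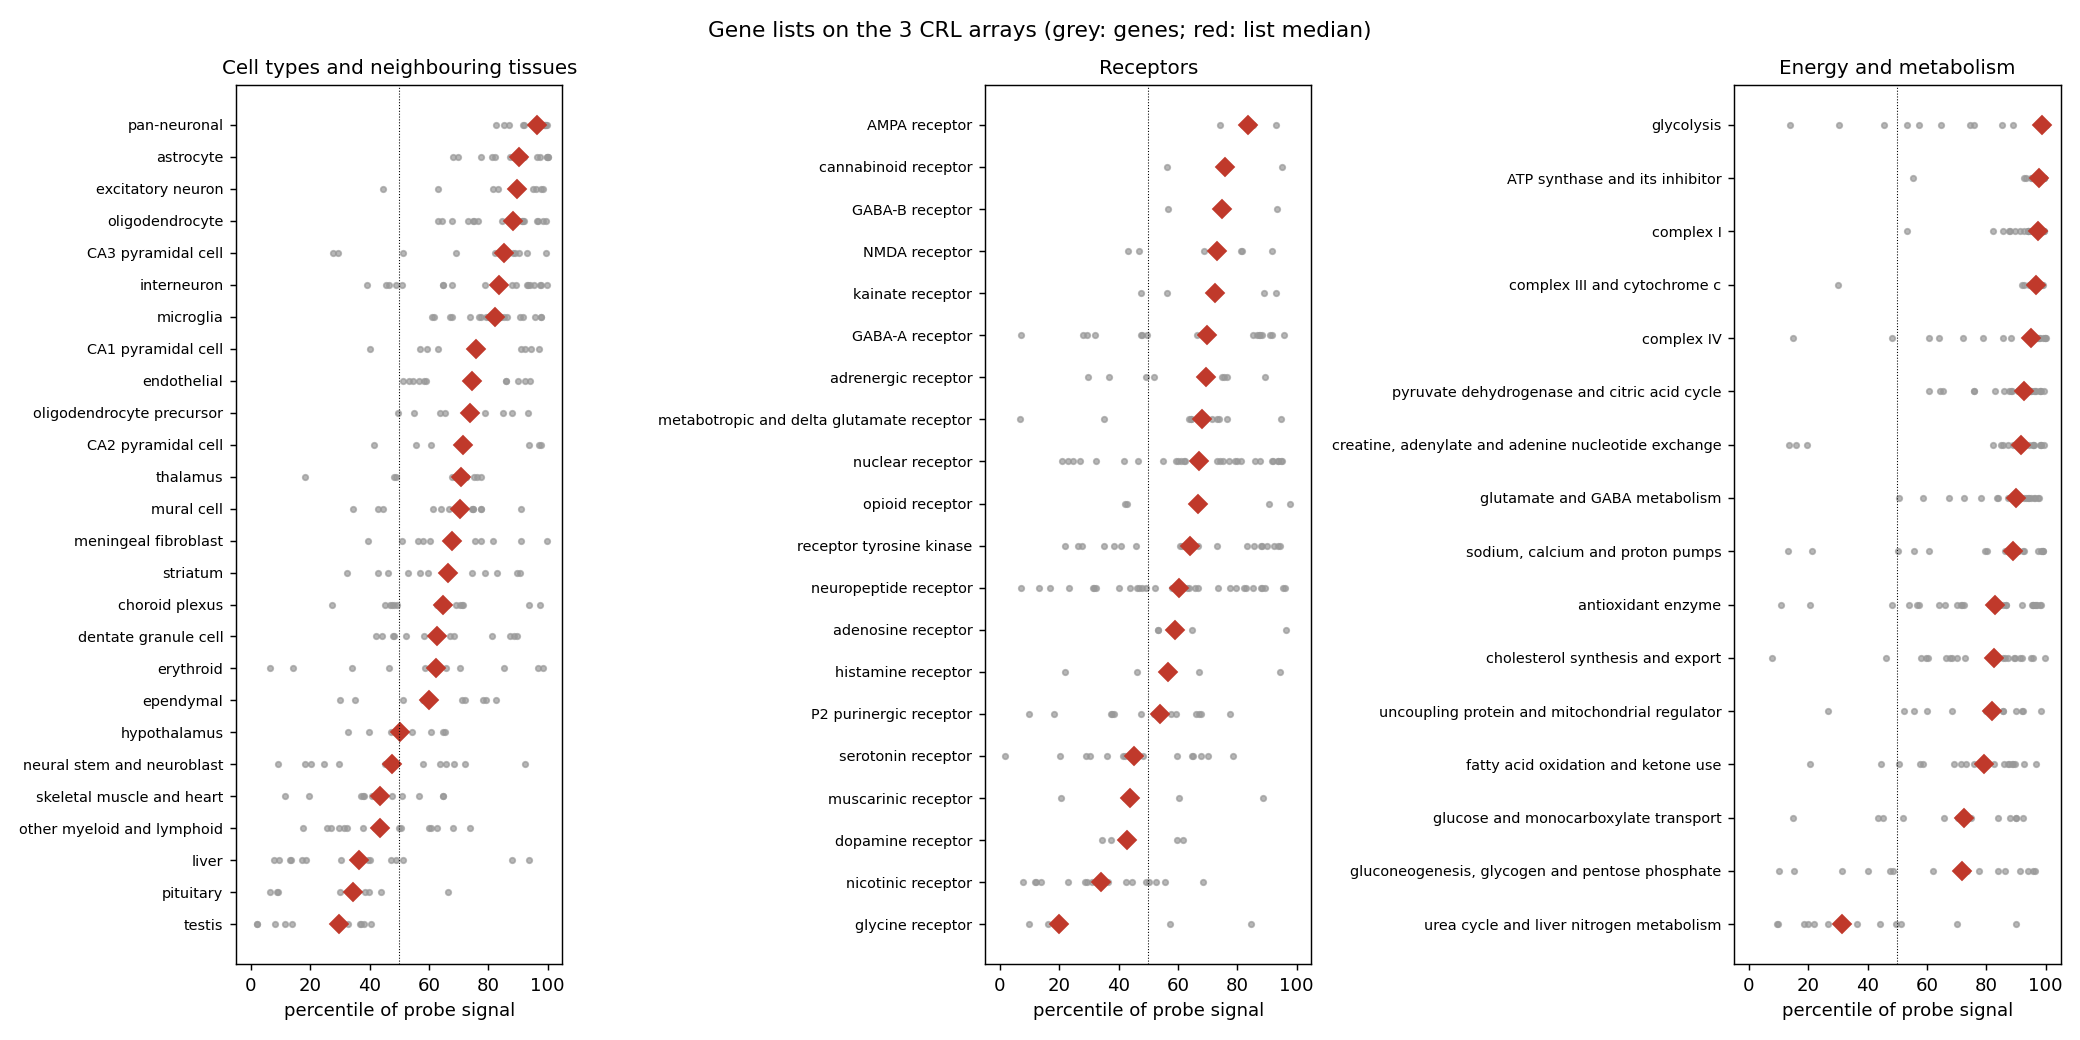
Percentile of probe signal, from 0 (dimmest) to 100 (brightest of 31093 gene names), of each gene (grey points) and the median (red diamonds) of lists for cell types and neighbouring tissues, receptors and energy metabolism, from the mean of 3 CRL arrays. The dotted line marks the 50th percentile. Glycolysis (median 98.6) and the ATP synthase (97.9) lie highest, and glycine receptors (19.9) and testis markers (29.8) lowest.

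Neuronal and glial markers, and those of each hippocampal field, were detected. All 14 pan-neuronal genes were detected on all 3 arrays, with a median percentile of 96.3. Thy1, a neuronal surface protein, read 6.83, 6.69 and 6.61. Syn1, synapsin of presynaptic vesicles, read 6.07, 5.95 and 5.68, and the dimmest member was the neurofilament gene Nefm at 1.41, 1.28 and 1.46. All 11 excitatory neuron genes were also detected, at a median percentile of 89.7. Camk2b, a subunit of the postsynaptic calcium/calmodulin kinase, was the brightest of these at 5.56, 5.48 and 5.18, and Neurog2, a transcription factor of neuron formation, the dimmest at -4.22, -4.23 and -4.18.

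The principal cell fields were all represented. The 9 CA1, 8 CA2 and 12 dentate granule cell genes were detected on all 3 arrays, as were 9 of 10 CA3 genes. Their median percentiles were 75.7 for CA1, 71.4 for CA2, 85.2 for CA3 and 62.6 for granule cells. Mpped1 was the brightest CA1 marker (4.88, 4.78 and 4.46), with Wfs1, an endoplasmic reticulum protein, at 3.74, 3.70 and 3.37. For CA2, Necab2, a neuronal calcium-binding protein, read 5.00, 5.02 and 4.74 and Rgs14, a regulator of G protein signalling, 3.53, 3.35 and 3.42. Rasl10a, a Ras-like GTPase, led the granule cell list at 2.65, 2.29 and 2.60. Of these markers, none that led a field's list varied by 2-fold between mice. Among field markers detected on all 3 arrays a 2-fold range was found for Pdzd2 of the granule cell list (-4.18, -3.12 and -3.61), Coch of the CA3 list (-3.54, -2.14 and -3.66) and Sostdc1 of the CA2 list, which is also a choroid plexus marker.

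Among interneuron markers 17 of 18 were detected on all 3 arrays. Cck, the neuropeptide cholecystokinin, read 7.41, 6.68 and 6.82, and Sst, somatostatin, 4.99, 4.87 and 4.93. Slc32a1, the vesicular transporter of GABA, read 4.76, 4.68 and 4.79. Cck was at the 99.8th percentile, the highest of the list. The median percentile of the list was 83.5, and 73.8 with repeat-like probes set aside, since the probe of Lhx6 is one of them.

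Astrocytes gave the brightest glial list, with a median percentile of 90.4 and 15 of 16 members detected on all 3 arrays, from Clu and Sparcl1 down to the gap junction gene Gja1 (-0.74, -0.92 and -0.30). All 18 oligodendrocyte genes were detected, at a median percentile of 88.3. Mag, a myelin adhesion protein, read 4.67, 4.07 and 4.48 and Mal, a myelin membrane protein, 4.52, 4.35 and 4.47. CRL replicate 2 was the lowest of the 3 arrays for 17 of the 18 oligodendrocyte genes, beside 29.3% of all detected genes. It was so by little: the list's median deviation from the genes' own means was -0.26 there and 0.15 and 0.07 on replicates 1 and 3. All 10 precursor genes were detected at a median percentile of 73.9, led by the phosphatase gene Ptprz1 (3.38, 3.21 and 3.35). All 20 microglial genes were detected at a median percentile of 82.3, or 79.9 without the repeat-like probes, which here include those of Siglech and Itgam. The brightest microglial gene on a probe that is not repeat-like was Csf1r, the receptor that microglia depend on, at 4.03, 4.10 and 4.02.

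Vessel markers followed, with all 14 endothelial genes (median percentile 74.6) and all 12 mural cell genes (70.6) detected. The endothelial leaders were Ly6c1 at 3.65, 3.74 and 3.32 and the tight junction gene Cldn5 at 2.97, 3.27 and 3.00. Replicate 2 was the highest array for 13 of the 14 endothelial genes, beside 33.0% of all detected genes, with a list median deviation of only 0.16. Blood leukocyte markers other than microglial ones were dim, at a median percentile of 43.5 with 13 of 17 detected on all 3 arrays. The B cell gene Ms4a1 was undetected. In the list for neural stem cells and neuroblasts 8 of 13 were detected on all 3 arrays. Dcx, a microtubule protein of young neurons, read -0.67, -0.61 and -0.46, while Cdk1, a kinase of dividing cells, and the transcription factor gene Tfap2c were undetected.

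The lists of fast glutamate and GABA-A receptor genes had higher median percentiles than those of dopamine, serotonin and acetylcholine receptors. All 4 AMPA receptor genes were detected, with a median percentile of 83.5. Gria1 read 3.50, 3.16 and 3.21, Gria3 1.95, 1.62 and 1.82, Gria4 1.39, 1.14 and 1.30, and Gria2 0.38, 0.10 and 0.14. Replicate 1 was the highest and replicate 2 the lowest for all 4, beside 42.7% and 29.3% of all detected genes, with ranges of 0.25 to 0.34. All 7 NMDA receptor genes were detected, at a median percentile of 73.0. Grin1, the subunit that every NMDA receptor needs, read 3.08, 2.72 and 3.06. Of the glutamate-binding subunits, Grin2b read 1.38, 1.22 and 1.16, Grin2c 1.08, 1.30 and 1.17 and Grin2a 0.09, -0.21 and 0.23. Each of these 3 varied by 0.44 or less between mice. Grin2d, which is also glutamate-binding, averaged -3.87, Grin3a -0.54 and Grin3b -4.48, all well above background.

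The 5 kainate receptor genes were all detected (median percentile 72.5). Grik5 averaged 3.30 and Grik4, which is also a CA3 marker, 2.40. Grik3 was the one fast glutamate receptor gene that varied by 2-fold between CRL mice, at -0.84, 0.47 and 0.29. Grik1 averaged -2.37 and Grik2 -3.78. Of the metabotropic and delta glutamate receptors 8 of 10 were detected on all 3 arrays. Grm5, a metabotropic receptor coupled to phospholipase C, was the brightest at 3.85, 3.65 and 3.72, and Grm6, the metabotropic receptor known from retinal bipolar cells, was undetected.

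Of 19 GABA-A receptor subunit genes 16 were detected on all 3 arrays, 2 on 2 arrays and 1, Gabrq, on none. Gabrb2 was the brightest at 4.02, 4.19 and 3.89, and Gabrb1 read 2.88, 2.66 and 2.97. Gabrd and Gabra5, which are known from extrasynaptic receptors, averaged 2.25 and 2.19, and Gabra3 1.99. Gabra2, Gabrg1, Gabra4 and Gabrr2 averaged -0.28 to -0.88, and Gabrr1, Gabre and Gabrg3 -3.46 to -3.78. Gabrr3 averaged -6.54 and was still well above background on all 3 arrays. Gabra6, the cerebellar granule cell subunit, read -7.86, -5.30 and -5.30 and Gabrp -6.20, -7.00 and -7.04. None of the 16 detected subunits varied by 2-fold. Of the GABA-B receptor genes, Gabbr1 read 3.39, 3.27 and 3.45 and Gabbr2 -2.34, -1.96 and -2.76.

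**Figure D2:**
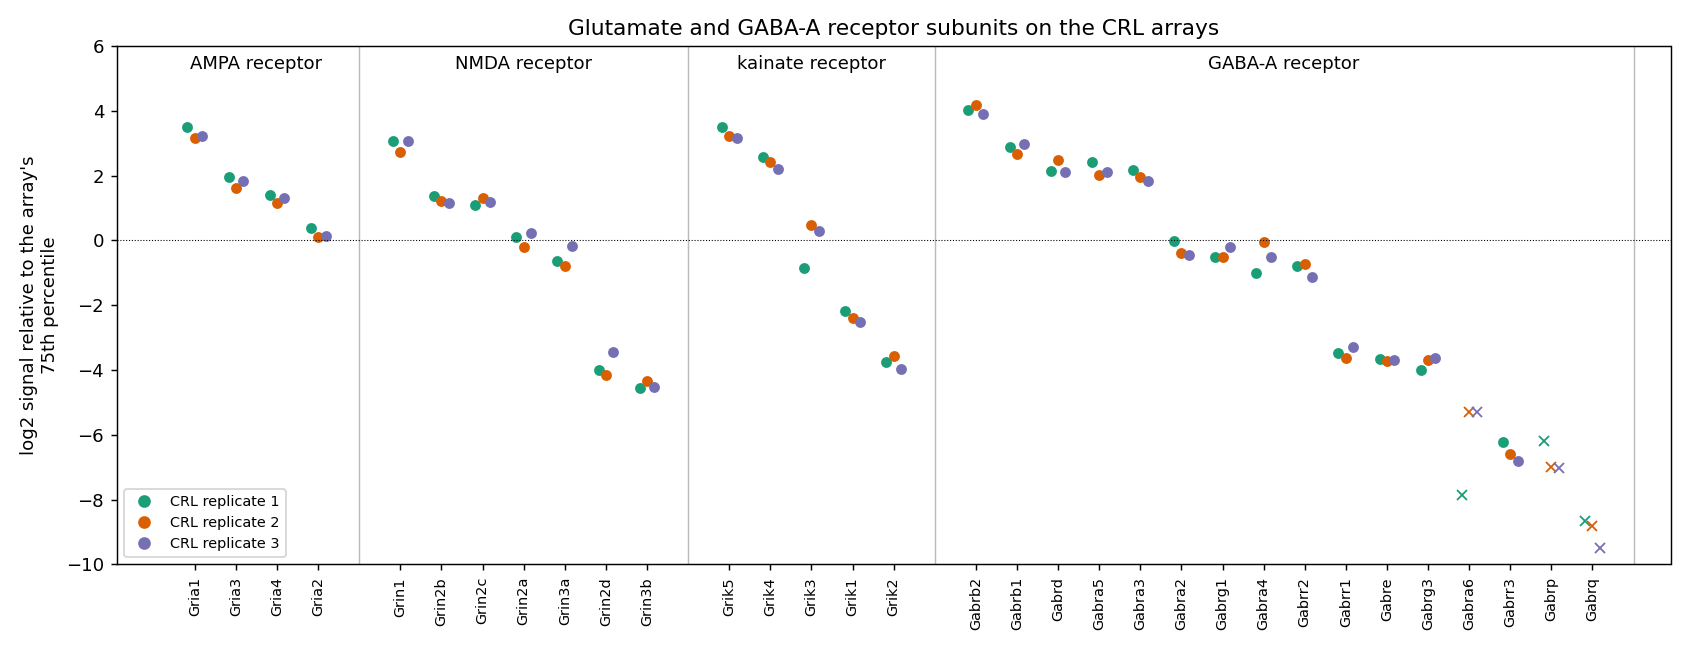
Signal (log2, relative to the array's 75th percentile, dotted line at 0) of the AMPA, NMDA and kainate receptor genes and of 16 of the 19 GABA-A receptor genes on CRL replicates 1 (green), 2 (orange) and 3 (purple). Crosses mark genes whose probe was not well above background on all 3 arrays: Gabra6, Gabrp and Gabrq. Gabrb2 is highest, near 4, and the 3 mice lie close together for most genes.

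The adenosine, cannabinoid and histamine receptor lists each had 1 gene above the 75th percentile. Adora1, the inhibitory adenosine receptor, read 4.53, 4.45 and 4.03. Cnr1, the main cannabinoid receptor of the brain, read 4.22, 3.72 and 3.67, and Hrh3, a histamine receptor, 3.64, 3.73 and 3.58. The other members of these 3 lists averaged below 0. Chrm1, the main muscarinic receptor of hippocampal pyramidal cells, was at the 88.8th percentile (2.43, 2.28 and 2.36), while Chrm5 was detected on 1 array only and the list median was 43.8. Among opioid receptor genes, the top value belonged to Oprm1 (5.13, 5.03 and 5.00), but its probe is repeat-like, and with such probes set aside the list median fell from 66.6 to 42.9. Oprl1, the nociceptin receptor, read 2.55, 2.73 and 2.83. Tacr2, the brightest neuropeptide receptor gene at 4.27, 4.30 and 4.19, also rests on a repeat-like probe. The receptor tyrosine kinase and nuclear receptor lists held several bright genes. Ntrk2, the receptor for BDNF, read 3.61, 3.75 and 3.46, and Ntrk3, that for neurotrophin 3, and Fgfr1, a fibroblast growth factor receptor, averaged 3.44 and 3.08. Nr3c1, the glucocorticoid receptor, read 3.71, 3.54 and 3.15, and the thyroid hormone receptor gene Thra and the retinoid X receptor gene Rxrb averaged 3.69 and 3.49.

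Dopamine, serotonin, nicotinic and glycine receptors were dim. All 5 dopamine receptor genes were detected, at a median percentile of 42.8. Drd5 (-1.31, -2.12 and -1.35) and Drd1 (-2.05, -2.48 and -1.13) were the brightest. Of 14 serotonin receptor genes 11 were detected on all 3 arrays, at a median percentile of 45.2, led by Htr2c (0.66, 0.84 and 0.86), and Htr2b and Htr3b were undetected. Of 16 nicotinic receptor genes 9 were detected on all 3 arrays and 5 on none: Chrna3, Chrna9, Chrnb3, Chrnd and Chrne, the last 2 being subunits of the muscle receptor. Chrnb2, a subunit of the main brain nicotinic receptor, was the brightest at -0.77, -0.79 and -0.25. Of 5 glycine receptor genes only Glrb (1.93, 1.42 and 1.83) and Glra2 (-2.01, -2.80 and -1.99) were detected, and Glra1, Glra3 and Glra4 were undetected. Erbb4, a neuregulin receptor known from interneurons, was undetected too, by all of its probes on this array, at -8.45, -7.01 and -7.45 for the brightest.

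Metabolic genes held the highest list medians of all: glycolysis, the ATP synthase, complex I and complex III were the first 4 of the 68 lists. Of 24 glycolytic genes 22 were detected on all 3 arrays, with a median percentile of 98.6. Besides Aldoa and Gapdh, Aldoc, the aldolase of astrocytes, read 7.17, 7.13 and 6.95, and Eno2, the neuronal enolase, 6.62, 6.47 and 6.05. Eno1, Gpi1, Pkm and Tpi1 averaged 6.16 to 6.44, and Ldha, Pgam1, Hk1, Ldhb and Pgk1 5.43 to 5.70. Hk1, the hexokinase of brain, read 5.79, 5.72 and 5.42, whereas Hk2 read -3.16, -2.90 and -2.43 and Hk3 averaged -4.04. The phosphofructokinase genes averaged 4.81 for Pfkm, 2.37 for Pfkl and 1.82 for Pfkp. Eno3 and Pgam2, isoforms of muscle, averaged 0.45 and 0.27. Pklr, the pyruvate kinase of liver and red cells, was detected on 2 arrays, and Ldhc, the lactate dehydrogenase of testis, on none (-7.84, -9.11 and -8.66). No glycolytic gene detected on all 3 arrays varied by 2-fold.

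Every ATP synthase gene was detected. Atpif1 was the brightest of the 18, at the 99.5th percentile. The catalytic subunit gene Atp5b read 6.12, 6.22 and 5.98 and its partner Atp5a1 3.71, 3.45 and 4.56, the one member of the list with a 2-fold range. Atp5h, Atp5g2, Atp5g1, Usmg5, Atp5e, Atp5k and Atp5l averaged 5.20 to 6.11, of which Atp5g1 rests on a repeat-like probe. Atp5j2, Atp5g3, Atp5c1, Atp5d and Atp5j averaged 4.01 to 4.87, and Atp5f1 and Atp5o 3.39 and 3.15. Atp5s, a coupling factor gene, stood apart from the rest of the list at -2.36, -2.69 and -2.57.

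Complex IV showed which isoforms of its subunits the array detected. The forms known from most tissues were bright: Cox6a1 averaged 7.64, Cox8a 7.12, Cox4i1 7.02 and Cox5a 5.93. Cox7a2l, Cox5b, Cox7b, Cox6c and Cox7c averaged 4.24 to 5.17, Cox7a2 3.51 and Cox6b1 2.26. The muscle forms Cox6a2 and Cox7a1 averaged 1.85 and 0.85. Cox8b, also known from muscle, read -1.37, -0.12 and -2.23, and Cox6b2 -0.44, 0.68 and -0.50. These 2 and Cox7b (4.85, 4.12 and 5.26) were the complex IV genes with a 2-fold range. The lung form Cox4i2 averaged -1.71 and Cox7b2 -3.65, and Cox8c, known from testis, was undetected (-8.53, -8.80 and -8.00). Complex I had 36 of 37 genes detected on all 3 arrays (median percentile 97.3), led by Ndufa13 at 6.21, 6.29 and 6.53, and complex III with cytochrome c 10 of 11 (96.6), where the testis cytochrome Cyct was detected on 1 array.

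**Figure D3:**
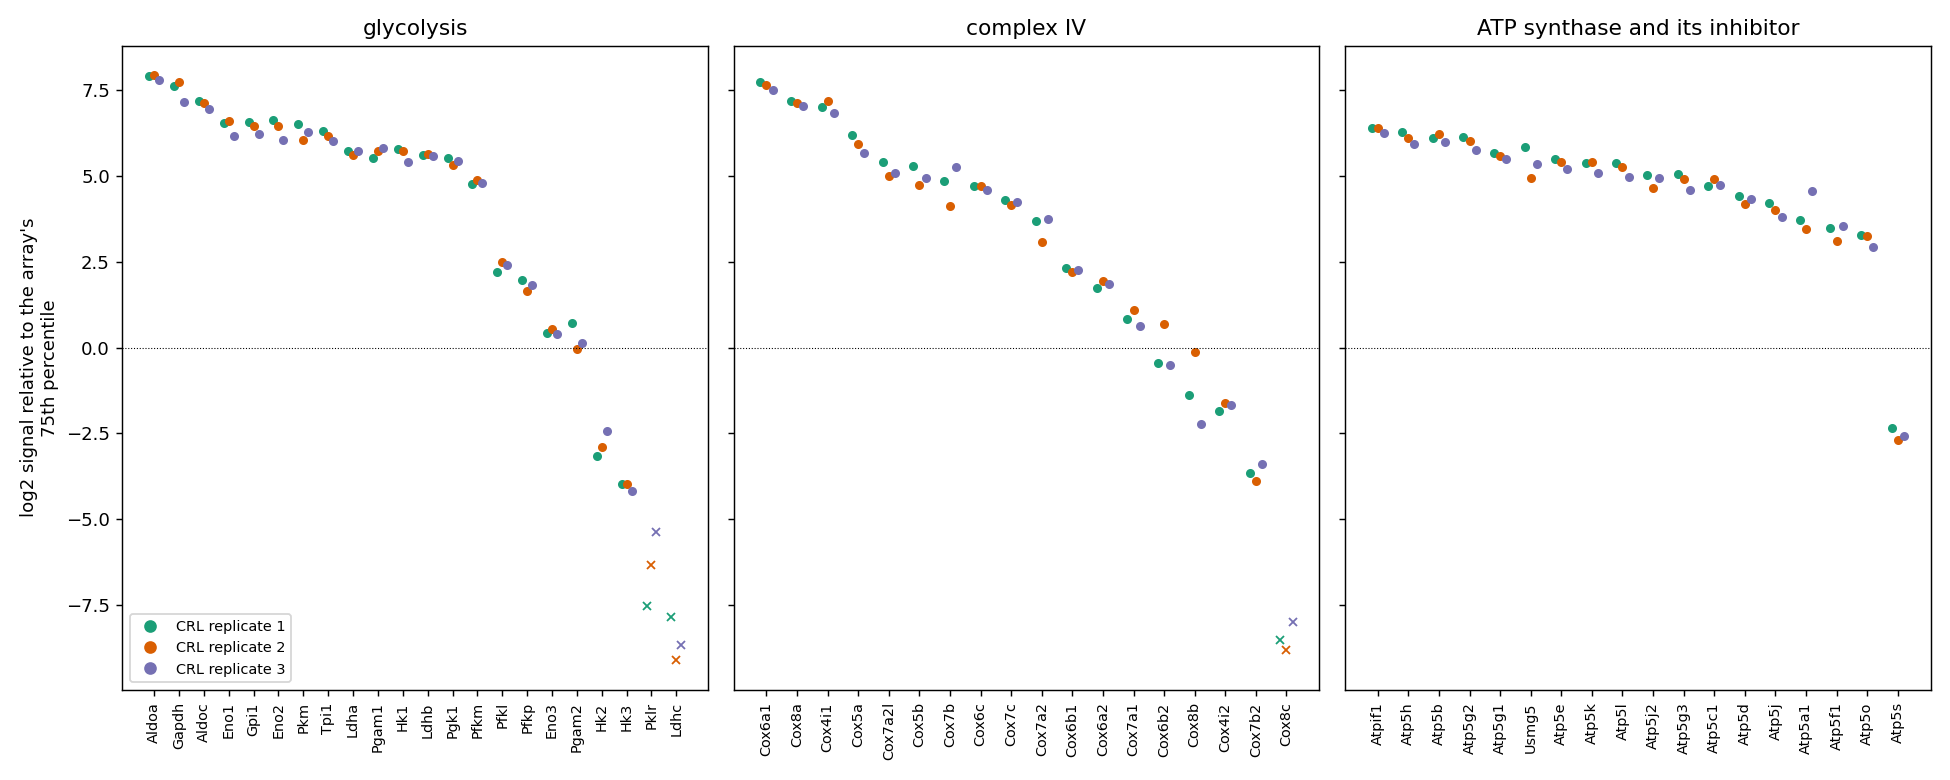
Signal (log2, relative to the array's 75th percentile, dotted line at 0) of 22 of the 24 glycolytic genes and of the complex IV and ATP synthase genes on CRL replicates 1 (green), 2 (orange) and 3 (purple), ordered by mean. Crosses mark genes not well above background on all 3 arrays: Pklr, Ldhc and Cox8c. Aldoa (mean 7.89) is highest and all ATP synthase genes except Atp5s lie above 2.5.

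In the citric acid cycle list 26 of 27 genes were detected on all 3 arrays (median percentile 92.8), led by the malate dehydrogenase gene Mdh2 at 6.51, 6.33 and 6.16 and the citrate synthase gene Cs at 5.19, 5.15 and 5.51. Energy buffering was bright in its brain forms, with Slc25a4, an ADP/ATP carrier, at 6.30, 6.28 and 6.22, Ckmt1 at 5.50, 5.33 and 5.29 and Ckb at 5.12, 5.31 and 5.24. The muscle creatine kinases Ckm and Ckmt2 were undetected. Among the pumps, Atp1b1, the beta subunit of the sodium pump, read 5.91, 5.74 and 5.72, and the testis form Atp1a4 was undetected. Slc2a3, the neuronal glucose transporter, read 3.28, 3.09 and 2.89, Slc2a1, that of the blood-brain barrier, 2.64, 2.68 and 2.40, and Slc2a2, that of liver and pancreas, was undetected. Oxct1, which lets brain use ketone bodies, read 4.62, 4.40 and 4.45. Sod1, the cytosolic superoxide dismutase, read 5.32, 5.23 and 5.66.

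The urea cycle and liver marker lists were dim, at median percentiles of 31.5 and 36.5. Of the 12 urea cycle genes 6 were detected on all 3 arrays and 4 on none, among them Otc, Nags and Hgd, against 22.0% undetected over all gene names. Ass1 was its exception at 2.51, 2.70 and 2.65. In the list for gluconeogenesis, glycogen and the pentose phosphate path 15 of 17 were detected on all 3 arrays, at a median percentile of 71.8, and Pck1 and Fbp2 on none. Of 15 liver markers 8 were detected on all 3 arrays and 6 on none: Alb, Apoa1, Fga, Otc, F2 and Cyp7a1, the rate-limiting enzyme of bile acid synthesis. The brightest liver marker, Ttr, is shared with the choroid plexus. Xist, the RNA that silences an X chromosome in females, was undetected in these male mice, and the Y-linked Ddx3y read 0.69, 0.42 and 0.48. Cry1, a core clock repressor, was undetected at -8.14, -7.79 and -8.16, whereas Dbp and Tef, clock output factors, averaged 4.19 and 4.99.

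Most names of the olfactory, vomeronasal and taste receptor families were undetected. Families were drawn from RefSeq-matched names, of which 17.9% were undetected and 74.7% detected on all 3 arrays. Of 1086 olfactory receptor names 731 (67.3%) were undetected and 175 (16.1%) detected on all 3 arrays, against 22.0% and 69.3% of all gene names. The brightest, Olfr544, read 0.92, 0.90 and 0.52, and it alone of the family was above the 75th percentile. Vomeronasal receptors were alike, with 66.0% of 253 undetected, as were taste receptors, with 65.8% of 38. Families of skin were unlike each other. Of 15 small proline-rich protein names 13 were undetected, while Sprr2a2 was at the 99.4th percentile. Of 103 keratin and keratin-associated names 37.9% were undetected and 44.7% were detected on all 3 arrays. At the other end, 97.5% of 81 cytosolic and 97.4% of 77 mitochondrial ribosomal protein names were detected on all 3 arrays, 94.9% of 39 proteasome names and 89.1% of 92 potassium channel names.

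**Figure D4:**
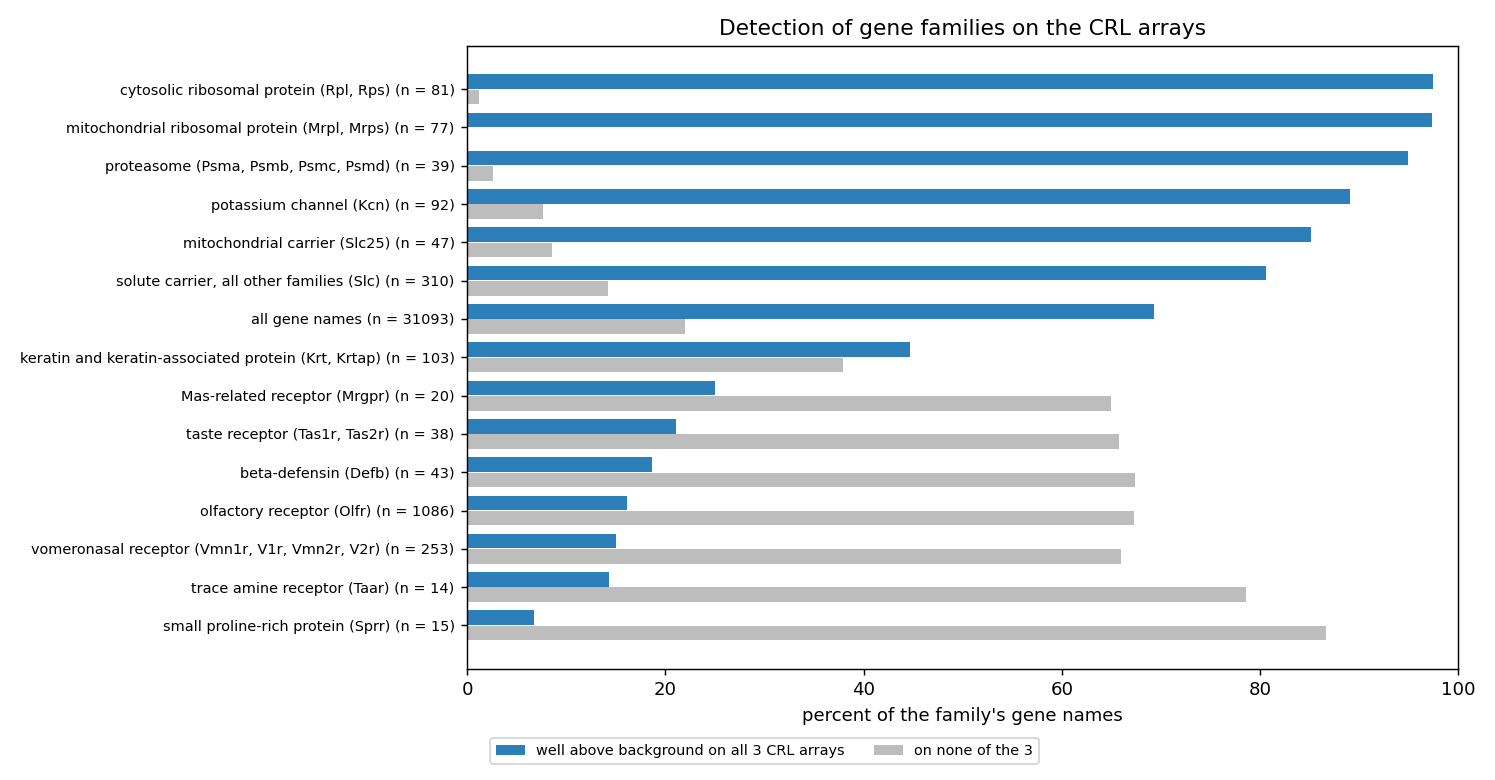
Percent of the gene names of each family that were well above background on all 3 CRL arrays (blue) or on none (grey), with the number of names in brackets. Ribosomal, proteasome and potassium channel families lie above the share of all gene names (69.3%), and sensory receptor, defensin, keratin and small proline-rich families below it. Families were drawn from RefSeq-matched names, of which 74.7% were well above background on all 3 arrays.

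Among the lists, those of tissue next to the hippocampus and of blood differed most between the CRL mice. Of 21495 gene names whose brightest probe was well above background on all 3 arrays, 1813 (8.43%) had a range of 2-fold or more, of which 104 are on any of the lists. The median SD between the 3 mice was 0.20 on the log2 scale and the median range 0.38. Of the 1813 genes CRL replicate 2 was the highest array for 39.8%, replicate 3 for 33.8% and replicate 1 for 26.4%. Over all 21495 the shares were 33.0%, 24.2% and 42.7%, and replicate 3 was the lowest array for 45.8%. Among the 60 named genes with the largest range replicate 2 was the highest for 45. Replicates 1 and 2, which share a slide, differed by 2-fold at 838 genes, replicates 1 and 3 at 744 and replicates 2 and 3 at 1007. For the 1813 genes the median SD was 0.64 in CRL, 0.36 in IF1-KO and 0.46 in IF1-TG, against 0.20, 0.17 and 0.22 over all detected genes. The CRL value is what chose these genes and is given as a description.

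The choroid plexus and erythroid lists had the largest median ranges between the CRL mice, 4.16 and 4.35. All 14 choroid plexus genes detected on every CRL array differed by 2-fold or more, and all 14 were highest on CRL replicate 2. Ttr, the thyroxine carrier transthyretin, read 2.68, 6.82 and 0.85, the largest range among RefSeq-matched genes detected on all 3 arrays. Folr1, a folate receptor, read -1.28, 2.58 and -1.93, and Kcnj13, a potassium channel, -2.06, 1.34 and -2.74. Aqp1, the water channel of the plexus, read -4.88, -0.94 and -5.78. Kcne2, another potassium channel gene of this epithelium that is not on the list, moved the same way at -4.13, 0.19 and -5.63. The summed level of the list, in multiples of the array's 75th percentile, was 29.1, 211.3 and 17.6 on CRL replicates 1, 2 and 3. It was 16.9, 12.6 and 154.3 on the IF1-KO arrays and 281.9, 29.1 and 15.8 on the IF1-TG arrays, so 1 array of each genotype was high. In whole tissue, fewer cells of a type and less RNA per cell cannot be told apart.

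Erythroid genes also separated replicate 2 from the other CRL mice. Of 7 detected on all 3 arrays 6 had a 2-fold range and all 6 were highest on replicate 2. Hba-a1, an alpha-globin, read 3.31, 7.28 and 2.93 and its near-identical copy Hba-a2 4.18, 7.71 and 4.19, which the probes may not separate. Hbb-b2, a beta-globin, read -1.66, 2.88 and -2.20, and Alas2, the red cell enzyme that starts haem synthesis, -3.61, 1.20 and -3.66. Hba-a1 lay between 4.05 and 5.18 in IF1-KO mice and between 3.72 and 4.94 in IF1-TG mice, so CRL replicate 2 lay above and the other CRL arrays below all 6. The median SD of the list was 2.41 in CRL, 0.63 in IF1-KO and 0.47 in IF1-TG. Bpgm, a red cell enzyme found widely, was the list's exception at 1.89, 1.71 and 1.77. Epb4.2 was undetected.

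**Figure D5:**
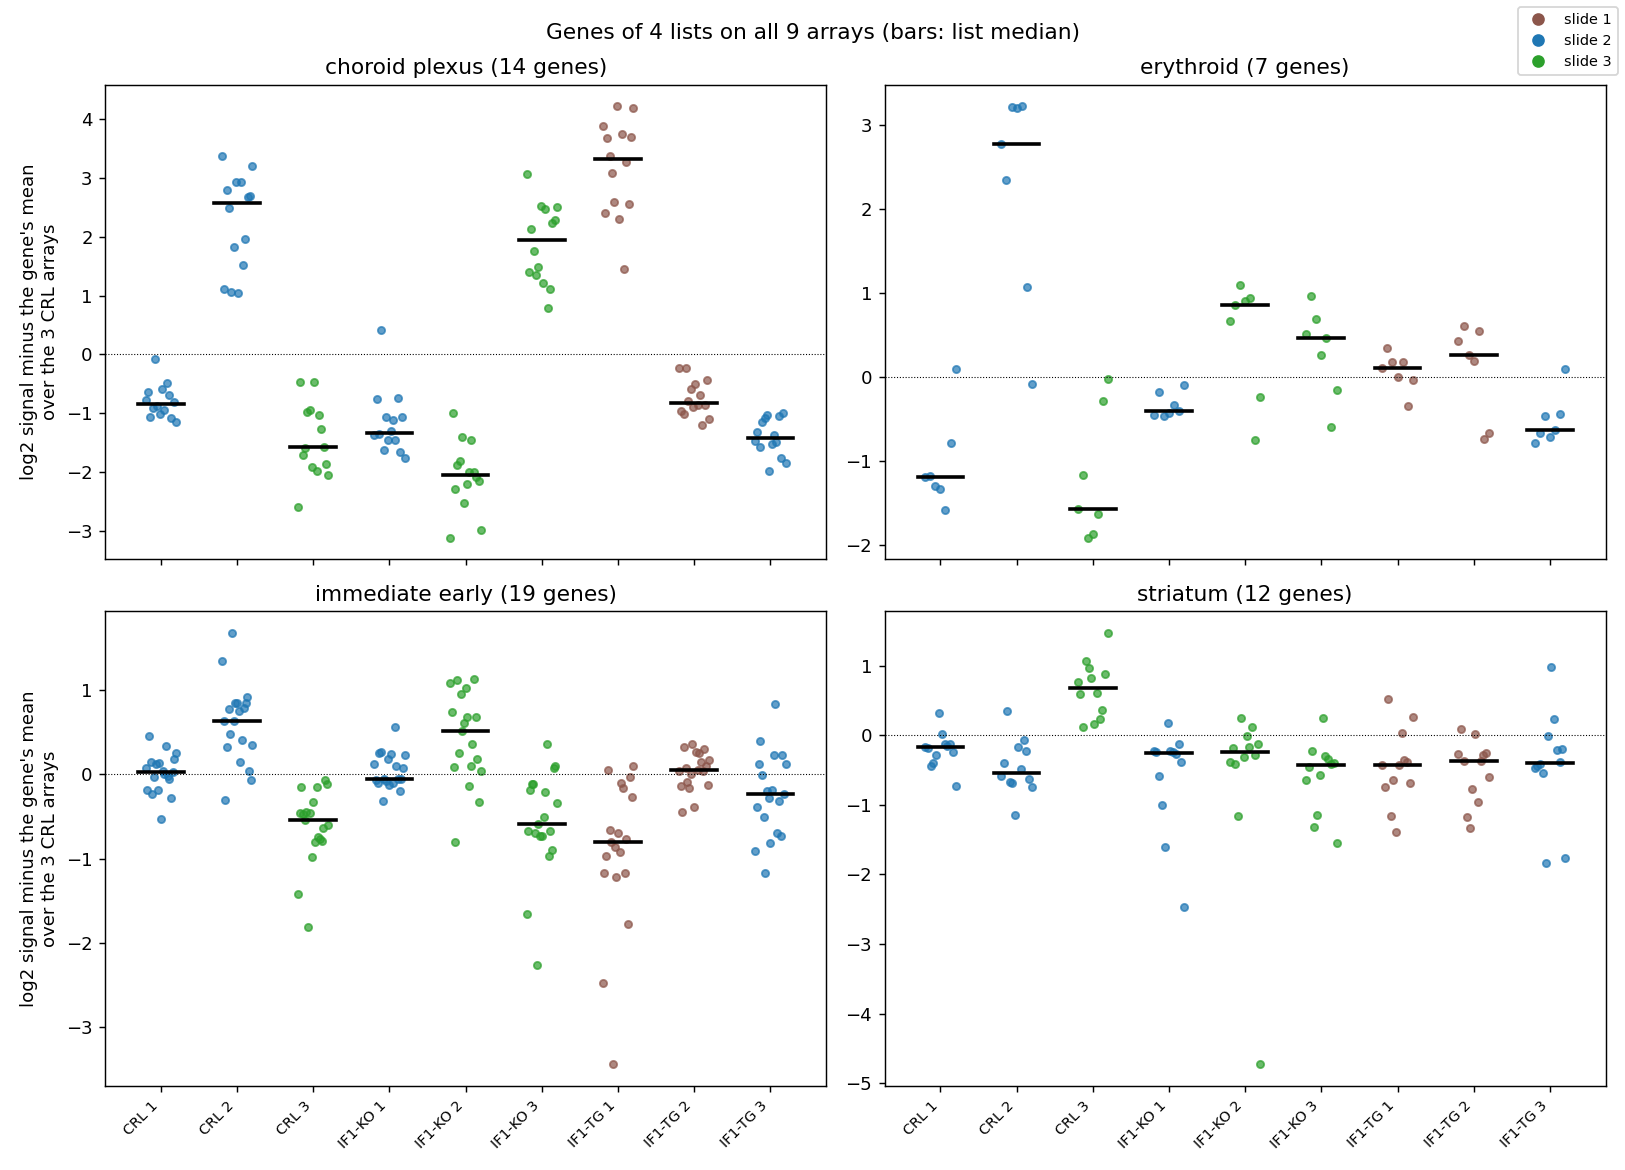
Signal of each gene minus its mean over the 3 CRL arrays (log2), on all 9 arrays, for choroid plexus, erythroid, immediate early and striatal lists, with points coloured by slide and black bars at the list median. CRL replicate 2 stands high for choroid plexus (median 2.58) and erythroid genes (2.77), and CRL replicate 3 for striatal genes (0.68), while the other 8 arrays are below 0 for the striatal list.

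Immediate early genes, which neurons switch on within minutes of activity, were graded across the CRL mice. Of 19 detected on all 3 arrays 12 had a 2-fold range, 17 were highest on replicate 2 and 17 lowest on replicate 3. Fos read -0.91, 0.36 and -2.41, Egr2 -2.07, -0.52 and -4.01 and Arc 4.12, 4.82 and 2.99. Npas4, a factor specific to neurons, read 0.70, 2.08 and 0.90. Nr4a1 read 3.95, 4.66 and 3.11, Btg2 -0.99, 0.21 and -1.34, Dusp1 -0.03, 0.78 and -0.77 and Junb -3.96, -2.96 and -4.28. Homer1, Bdnf and Nr4a2 stayed within 0.30. The list medians, relative to each gene's CRL mean, were 0.03, 0.64 and -0.55 in CRL, -0.05, 0.52 and -0.60 in IF1-KO and -0.80, 0.05 and -0.23 in IF1-TG, and the list's median SD was 0.64, 0.60 and 0.46 in the 3 genotypes.

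Promoters of these genes were searched for motifs known from activity-dependent transcription. A link between the motifs and the differences between mice was not tested. RefSeq promoters, 250 bases before to 50 after the start in GRCm38.p6, were found for 16 of the 20 listed genes, with 28 promoters in all. The cAMP response element TGACGTCA was present on either strand in 2 of the 28 (7.14%) and in 1.79% of 32851 promoters. Its core TGACG, which the full element contains, was present in 17 of the 28 (60.7%) and in 20.8% of all promoters. The serum response element was present in 4 of the 28 (14.3%), all overlapping or alternative promoters of Egr2, and in 1.63% of all. In the windows below capitals mark the motif.
Fos, core (chr12:85473812-85473841, + strand): agttccgcccagTGACGtaggaagtccatc
Egr2, serum response element (chr10:67537787-67537816, + strand): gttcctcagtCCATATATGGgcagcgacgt
Npas4, core (chr19:4990123-4990152, - strand): gacgtcacgggaTGACGtcggaagtctggg
Btg2, full element (chr1:134079303-134079332, - strand): gttcccaataaTGACGTCAgtgagcgatga
Dusp1, full element (chr17:26508597-26508626, - strand): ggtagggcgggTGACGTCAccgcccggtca
Junb, core (chr8:84978837-84978866, - strand): gcttcctgacagTGACGcgagccgcctcct
Nr4a1, core on the other strand (chr15:101266794-101266823, + strand): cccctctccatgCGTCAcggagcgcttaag
A match describes these letters only. The windows shown are all of genes with a 2-fold range. Homer1, Bdnf and Nr4a2, each with a promoter that also holds the core, stayed within 0.30 between the same mice, Homer1 within 0.11.

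CRL replicate 3 stood apart in striatal markers. Of 12 detected on all 3 arrays 7 had a 2-fold range and 11 were highest on replicate 3. Penk, the precursor of enkephalins, read 2.88, 1.41 and 3.38 and Tac1, that of substance P, 0.61, 0.22 and 1.73. Drd1, a dopamine receptor of striatal output neurons, read -2.05, -2.48 and -1.13. Six3, a transcription factor of striatal neurons, read -4.71, -4.73 and -2.52. The list median was 0.68 on replicate 3, -0.18 and -0.54 on the other CRL arrays and between -0.44 and -0.23 on the 6 IF1-KO and IF1-TG arrays. Another gene of a neighbouring region with a wide range was Oxt, the hypothalamic hormone oxytocin, at -3.04, 1.49 and -1.48. Meningeal fibroblast markers had a 2-fold range for 6 of 9, 7 of the 9 being highest on replicate 2, with the collagen gene Col1a2 at 0.28, 1.43 and 0.32. A 2-fold range was also found for 4 of 12 mural cell genes, among them Acta2, smooth muscle actin, at 0.23, 1.23 and 0.49, for 4 of 13 genes of other myeloid and lymphoid cells, 3 of 17 of interneurons and 1 of 20 of microglia, P2ry12 (-0.16, -1.90 and -0.38). No astrocyte, oligodendrocyte, oligodendrocyte precursor, endothelial, CA1 or pan-neuronal gene of the lists had one. The 2 named genes with the smallest ranges, Tmbim4 (mean 1.81) and Dmwd (mean 5.07), differed by under 0.01 between the mice.

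To ask what set the CRL arrays apart from the series, CRL was compared with the mean of IF1-KO and IF1-TG by limma. No gene passed after Benjamini-Hochberg adjustment, the smallest adjusted *P* being 0.227. At a fold change of 1.5 and an unadjusted *P* of 0.05, 433 of 21924 genes were called (1.98%), 183 higher (0.835%) and 251 lower (1.14%) in CRL, 1 of them in both directions through different probes. An unadjusted *P* below 0.05 was found for 1320 genes. The CRL and other arrays did not overlap for 564 (2.03%) of the 27724 probes with a value on every array, and for 113 of the 432 called ones, which the call itself favours. Of the 184 probes called higher 27 were well above background on the 3 CRL arrays and on no other. Such probes entered the test only through the group in which they are high, so their calls are a description. With probes kept only where well above background on all 9 arrays, 57 genes were called higher and 190 lower.

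The hormone genes Gh and Prl, which are known from the anterior pituitary, had the largest differences among called named genes, and both are of this kind. Gh, growth hormone, read -4.05, -4.62 and -6.78 on the CRL arrays and -9.26 to -8.33 on the other 6, none of which was well above background. It was at least 7.68-fold higher in CRL, with an unadjusted limma *P* of 9.68e-05 and an adjusted *P* of 0.643. Prl, prolactin, read -3.70, -4.81 and -6.37 against -8.73 to -7.11, again with none of the other 6 well above background. It was at least 6.84-fold higher, with an unadjusted limma *P* of 0.000244 and an adjusted *P* of 0.782. Both were highest on replicate 1 and lowest on replicate 3, and neither overlapped with the other genotypes. Cga, the alpha chain of pituitary hormones, ran the same way among the CRL mice at -4.78, -6.19 and -8.29 and was detected on 2 of them. Of the 9 pituitary markers 5 were tested and these 2 were called higher, beside 0.835% of all genes; as both entered the test through CRL, the count is a description. Lhb and Pomc, which were detected on all 3 CRL arrays, were not, and Tshb, Fshb and the defining factor Pou1f1 were undetected. The summed level of the list ran from 0.67 to 0.82 in CRL, 0.78 to 0.92 in IF1-KO and 0.59 to 0.91 in IF1-TG. Within slide 2 (CRL replicates 1 and 2 against 2 arrays) Gh was at least 11.2-fold and Prl at least 7.80-fold higher, and within slide 3 (CRL replicate 3 against 2 arrays) at least 3.01-fold and 2.87-fold. These bounds hold for the scale used here: with normexp and quantile normalization the differences were 1.08 for Gh and 1.02 for Prl on the log2 scale.

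The next largest differences among called named genes were of dim probes. E030018B13Rik was higher by 2.55 ± 0.68 (SE), Gm6432 by 2.12 ± 0.69 and the olfactory receptor gene Olfr984 by 2.07 ± 0.89. The probes of E030018B13Rik and Gm6432 were well above background on 1 of the 6 other arrays and that of Olfr984 on 2, so these differences are largely against values near background. These probes met the filter in CRL alone, where they are high, so their differences are a description. Lower in CRL were Speer4cos (-1.79 ± 0.33, on a repeat-like probe), Aldh16a1 (-1.54 ± 0.47, by a probe that is not its brightest), 1700030C10Rik, Tspan11 (-1.49 ± 0.49) and the oocyte gene Nlrp5 (-1.48 ± 0.38). The probes of all 5 that were lower read below -5.7 on every CRL array, where they were well above background on 1 array, or 2 for Nlrp5, and 3 of them overlapped with the other genotypes. All 5 met the filter only outside CRL, where they are high, so their differences are a description too. With slide as a fixed block the calls of Olfr984, Tspan11 and 1700030C10Rik were lost. The differences were then 1.24 for Olfr984 (unadjusted limma *P* of 0.225) and -1.24 for Tspan11 (0.0778). That of 1700030C10Rik was -1.07 (0.109), against -1.50 without the block. With slide as a random block the call of Olfr984 was also lost, at a difference of 1.95 (unadjusted limma *P* of 0.0531). Slide 2 held CRL replicates 1 and 2 with 1 array of each other genotype. The differences there were 0.56 for Olfr984, -1.33 for Tspan11 and -1.08 for Nlrp5. Slide 3 held CRL replicate 3 with 2 IF1-KO arrays and no IF1-TG array. The differences there were -0.35 for Speer4cos, -0.45 for 1700030C10Rik and 0.26 for Aldh16a1. So few arrays cannot decide whether a call holds, here and for the within-slide results below. With normexp and quantile normalization the differences shrank to 0.73 for E030018B13Rik, 0.47 for Gm6432, -0.35 for Aldh16a1 and -0.45 for Nlrp5, and the calls of the last 3, Tspan11 and 1700030C10Rik were lost.

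Of the listed genes few were called. In the striatal list 2 of 12 were called higher in CRL, beside 0.835% of all genes tested, Adora2a, the adenosine receptor of striatal neurons (-3.26, -3.53 and -1.80 in CRL, -4.18 to -3.41 in the others, a difference of 1.06 ± 0.35), and Six3 (1.81 ± 0.79). Both were led by replicate 3, and without it the difference was 0.53 for Adora2a and 1.08 for Six3. The summed level of all striatal markers was 19.1, 16.7 and 29.5 on the CRL arrays, 15.8 to 17.0 on IF1-KO and at most 19.2 on IF1-TG, and its part in these 2 calls was not tested. In the neuropeptide receptor list 3 of 28 were called higher, also beside 0.835%: Mc3r, a melanocortin receptor (1.02 ± 0.43), Npy2r, a neuropeptide Y receptor (0.72 ± 0.19, by a probe that is not its brightest), and the galanin receptor gene Galr1, which was well above background on no other array (at least 1.87-fold) and so entered the test only through CRL. For Npy2r the difference was 0.26 from IF1-KO, with overlapping values, and 1.17 from IF1-TG. The Mc3r call was lost under 10 of 23 alternatives, among them without CRL replicate 2 (0.70) or 3 (0.88) and against IF1-TG alone (0.59), that of Galr1 under 10 of 22, that of Six3 under 12 of 22 and that of Npy2r under 4 of 22, including within slide 2, within slide 3 and without CRL replicate 1. In the heat shock list 2 of 11 were called lower (1.14% of all genes tested), while the brightest probes of 9 of the 11 were higher in CRL and the list median was 0.09: the called probes were of Hsp90aa1 (-0.62 ± 0.22) and Hspe1 (-0.77 ± 0.23, by a probe that is not its brightest). Hsp90aa1 read 4.18, 4.72 and 5.22 in CRL against 5.15 to 5.55, an overlap through replicate 3. Its call was lost under 6 of 23 alternatives, among them without CRL replicate 1 (-0.35) and within slide 3 (0.05), and that of Hspe1 under 3 of 22, among them normexp with quantile normalization (-0.295). The unadjusted limma *P* of these calls ran from 0.00428 for Npy2r to 0.04998 for Six3. With slide as a fixed block the calls of Adora2a and Galr1 were lost. The differences were then 0.85 for Adora2a (unadjusted limma *P* of 0.0548) and 0.78 for Galr1 (0.123).

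Of 295 genes tested on the metabolic lists 3 (1.02%) were called, Cox7b2, Cox7c and Abat, and of 25 glutamate receptor genes 2, Grin2b and Grm5, beside 1.98% of all genes. Cox7b2 was higher by 0.76 ± 0.28. With slide as a fixed block its call was lost (unadjusted limma *P* of 0.065), while the difference did not shrink, at 0.81. The CRL values of Cox7b2, -3.65, -3.89 and -3.40, lay beside those of IF1-KO (-3.62 to -3.32) and above those of IF1-TG (-6.00 to -4.57). Secondary probes of Grin2b (-0.71 ± 0.28), Grm5 (-0.66 ± 0.18) and Cox7c (-0.63 ± 0.25) were lower and 1 of Abat, the GABA transaminase, was at least 1.84-fold higher, well above background on the CRL arrays alone, while the brightest probe of each of these genes was not called. The calls were lost under 7 of 22 alternatives for Grin2b, 5 of 22 for Grm5, 7 of 22 for Cox7c and 2 of 21 for Abat, without CRL replicate 1 for the first 3, and Cox7c was at 0.05 within slide 3. No glycolytic, ATP synthase, GABA-A, AMPA, choroid plexus, erythroid or immediate early gene was called. The median difference was -0.08 for 22 glycolytic genes, 0.12 for 16 GABA-A subunits and 0.18 for 19 immediate early genes, beside 0.008 over all genes tested.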

How the data were processed

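Hippocampal RNA was labelled with Cy3 and hybridised to Agilent mouse 4x44K arrays, 1 mouse per array. The deposited values, per the file headers, were the processed green intensity of each spot, background-subtracted by the authors' scanning software (probe positions on mm9). The submitters' notes name limma; their normalization is not given in the sources used here. Here log2 intensity minus the array's 75th percentile was used (R 4.3.3, limma 3.58.1, Python 3.11.15). Control spots and spots flagged as outliers were dropped and repeated probes averaged. The contrast kept 28011 probes, was fitted with lmFit and eBayes over 3 groups of 3, and was tested on simulated data. Folds given as "at least" set a dim group's mean at the lowest signal well above background on each array.

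The arrays, gene lists and tests were chosen with earlier results of these data known. Named were the 20 brightest and 20 most variable RefSeq-matched genes, extreme, undetected and called list members, energy and receptor list members, Atpif1 and the 5 largest called differences each way; other names, including Kcne2, Tmbim4 and Dmwd, were chosen after their values were seen. Sf1 in the hypothalamic list denotes splicing factor 1 on this array and was left out. Some genes of the lists are counted but not reported here by name. The alternatives were background correction, normalization, detection mark, filters, probe choice, slide, comparison group and left-out replicates.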

Additional observations from a re-analysis of the deposited data

How the results depend on the processing

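The number of lists with a median above the 75th percentile stayed between 25 and 28 under the alternatives run. The 6842 undetected names became 2161 with the mark for positive and significant signal and 4032 over RefSeq-matched names alone. The 1813 genes with a 2-fold range became 1171 with normexp and quantile normalization, 1023 without background correction, 6592 without the detection filter and 838 on the slide 2 arrays alone; leaving out each CRL replicate gave 775 to 1096. The 433 genes called between CRL and the rest became 149 with normexp and quantile normalization together, 1212 without the filter, 247 with the filter over all 9 arrays, 886 with slide as a fixed block, 1486 within slide 2, 706 within slide 3 and 1232 against IF1-TG alone. Leave-one-out counts ran from 362 to 1006, with 1006 without CRL replicate 3 and 656 without IF1-TG replicate 2. Normexp with quantile normalization also turned the split from 183 higher and 251 lower to 30 and 119, the all-array filter to 57 and 190. The cause was not tested.

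With the replicate number as a block 423 genes were called, and deviations of same-numbered arrays correlated at -0.165 to 0.116, so the arrays share only a number. Setting repeat-like probes aside, chosen after seeing the data, gave 430. Of 507 gene differences under alternatives 398 kept their direction and side of the threshold, 102 lost the call, 1 gained it and 6 reversed: Atpif1 (-0.143 within slide 2, -0.157 against IF1-TG alone), Aldh16a1 (0.259), Hsp90aa1 (0.0511) and Cox7c (0.0478) within slide 3, and Cox7b2 (-0.169 against IF1-KO alone). The differences of Gh and Prl ran from 1.08 to 4.50 and from 1.02 to 3.77 over the 22 alternatives that kept them; the filter over all 9 arrays left out both, which were measured in CRL alone.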
